A study of Zea mays with 36 samples.

Results

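The genes described here are those with the lowest running numbers in the maize annotation, Zm00001d000001 to Zm00001d001750. The table of embryo expression values lists 1632 IDs of this range. Of these, 308 reached at least 1 RPKM (reads scaled by gene length and by the library total) in at least 3 of 36 libraries and are called detected genes below. They are 308 of the 28048 features that passed the same filter in the whole table. The members were chosen by their number, and the filter is the only measured value in the choice. The numbers precede those of the genes on chromosome 2, and the range is understood to hold genes on contigs with no assigned chromosome. The files give no coordinates, so this placement was not checked and no chromosome, exon or strand can be stated. None of the IDs (0) could be paired with a gene name, so every gene is named by its ID and no function is given.

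The libraries came from embryos of a maize line with high oil content and of a maize line with low oil content. Each line was collected every 5 days, with 15 days after pollination as the first of 6 stages and 40 days as the last, and 3 replicates per line and stage make 12 groups. In all groups the seeds were left in water overnight before the embryo was cut out, so every library comes from soaked seed. Each oil level is represented by 1 line, so oil content and all other genetic differences between the lines cannot be told apart. The labels name no genotype beyond the oil level and do not say whether replicates came from separate plants. The p-values therefore rest on differences among these samples that may be technical.

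A genome assembly joins sequenced pieces into chromosomes, and pieces that cannot be placed are kept as separate contigs. Such contigs are often short and rich in repeats, and gene models on them tend to be fragmentary. Maize lines are known for differing in gene content and in sequence as well as in gene regulation. The maize embryo first forms its organs, then fills with oil and storage protein, and later dries towards dormancy, so many of its genes change in level over this window.

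Library totals ran from 41247297 to 66760746 reads assigned to features. For a gene of 1000 bases, 1 RPKM stood for 41.2 reads in the shallowest library and 66.8 reads in the deepest. The libraries with the lowest mean correlation to their own group were replicate 1 of the 40-day high-oil group (0.934), replicate 2 of its 35-day group (0.938) and replicate 1 of the 40-day low-oil group (0.941). Counts of calls without these 3 libraries are given where they matter. Embryo and endosperm markers could not be looked up without gene names, so the labelled tissue was not checked.

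Few of the lowest-numbered genes were detected. The 308 detected genes are 18.9% of the 1632 listed, whereas 23449 of 42514 other annotated gene IDs (55.2%) passed the same filter. A further 549 IDs had reads but did not pass, and 775 (47.5%) were at 0 in all 36 libraries, against 18.1% of the other gene IDs. Detection was uneven along the range. Of the IDs numbered 1 to 250, 102 of 186 were detected (54.8%), and of those numbered 251 to 500, 78 of 210 (37.1%). In each later block of 250 numbers the share lay between 8.50% and 12.2%. Up to number 500, 180 of 396 IDs were detected (45.5%), and beyond it 128 of 1236 (10.4%). The division at 500 was chosen after these shares were seen and carries no test. For comparison, 52 blocks of 1000 numbers above 2000 had shares of 39.9% to 65.7%, with a median of 55.4%. The first 250 numbers had a share within that range, and all 6 later blocks of 250, from 251 on, lay below the lowest of the 52.

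**Figure D1:**
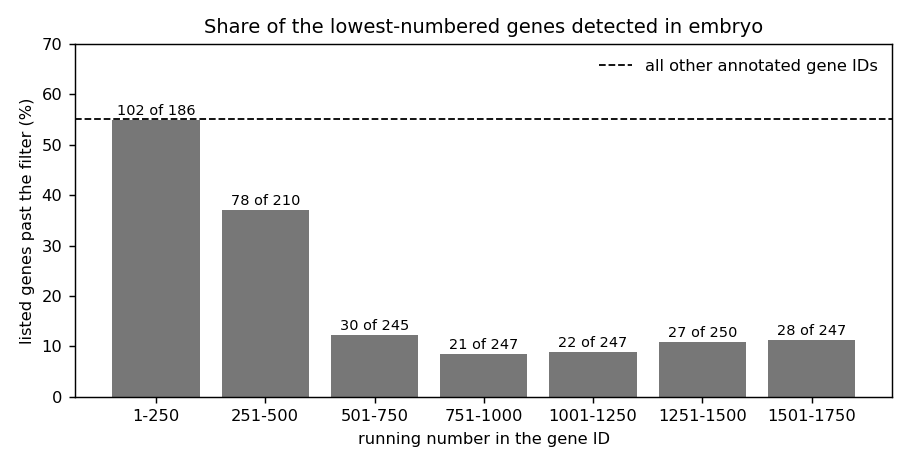
Share of listed gene IDs that reached 1 RPKM in at least 3 of 36 libraries (%, vertical axis) by running number in the ID (blocks of 250, horizontal axis), with counts above the bars. The dashed line is the share among all other annotated gene IDs (55.2%). The first block (102 of 186) lies just below it at 54.8%, and the 5 blocks beyond number 500 lie at or below 12.2%.

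The filter separates genes that differ little at its edge. The third-highest values just inside were 1.01 RPKM for Zm00001d000076, 1.01 RPKM for Zm00001d001272 and 1.02 RPKM for Zm00001d001058. Just outside, Zm00001d001554 had 0.996 RPKM, Zm00001d000784 had 0.975 RPKM and Zm00001d001540 had 0.974 RPKM.

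The detected genes were shorter and less abundant than other detected gene IDs. Their median length was 874 bases, with a range of 72 to 5006 bases, against 1565 bases for other gene IDs past the filter. Of the 308, 37 (12%) were shorter than 300 bases, against 1.98% of the others. The median of their mean levels was 3.47 RPKM, against 7.44 RPKM for the other gene IDs and 5.77 RPKM for all features tested. Mean levels were below 1 RPKM in 77 genes, from 1 to 10 RPKM in 153, from 10 to 100 RPKM in 71 and at least 100 RPKM in 7. Numbers up to 500 had a median mean level of 5.72 RPKM, and numbers beyond had 1.33 RPKM. A group of 130 genes reached 1 RPKM in all 36 libraries. Within single lines, 240 passed the filter in both, 21 passed in the high-oil line alone, 35 passed in the low-oil line alone, and 12 passed only over both lines together.

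Together the 308 genes took between 0.374% and 0.628% of a library's reads. In the high-oil line the share averaged 0.450% ± 0.0389 at 40 days, against 0.598% ± 0.0155 at 15 days (SD, n = 3 each). In the low-oil line it averaged 0.460% ± 0.0219 at 40 days, against 0.611% ± 0.0209 at 15 days (SD, n = 3 each). The lines were close to each other at both ends of the window. In each line the 40-day share was lower than the 15-day share by more than the SDs. At 25 days the share was 0.448% ± 0.00919 in high-oil and 0.494% ± 0.0053 in low-oil embryos (SD, n = 3 each). Without the most abundant gene, Zm00001d000429, the 40-day shares were 0.399% ± 0.0189 in high-oil and 0.431% ± 0.0125 in low-oil embryos. The share is a sum in which abundant genes weigh most, and it does not describe the typical gene. The median change of the 308 genes in log2(RPKM + 1) was only -0.03 in high-oil and -0.06 in low-oil embryos. Over the whole table it was -0.24 in each line. In high-oil libraries Zm00001d000227 had 29377, 34428 and 26758 reads at 15 days, against 4112, 5554 and 5882 at 40 days, while Zm00001d000429 rose. How far the lower share rests on a few abundant genes was not tested. Whether the share fell more than that of other genes was not tested. In these whole-embryo samples, fewer cells of a type and less RNA per cell cannot be told apart.

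The most abundant of the genes was Zm00001d000429, a gene of 210 bases with a mean of 1224 RPKM over all libraries. It rose in both lines. At 40 days the high-oil libraries had 1322, 2834 and 3092 RPKM, against 99.5, 22.3 and 17.3 RPKM at 15 days. In the low-oil line it had 1015, 2048 and 1193 RPKM at 40 days, against 40.6, 73.8 and 60.2 RPKM at 15 days. Every 40-day library was above every 15-day library of its line. The change was 6.02 ± 0.41 in the high-oil line (limma on log2(RPKM + 1), adjusted p = 5e-13) and 4.56 ± 0.41 in the low-oil line (limma, adjusted p = 1.6e-10), where the error is the standard error of the fit. By 20 days the group means were already 836 RPKM in high-oil embryos and 599 RPKM in low-oil embryos. Averaged over stages the lines differed by 0.14 ± 0.17 (limma, adjusted p = 0.56). Its 287316 high-oil reads and 233485 low-oil reads fell on a very short gene, so its rank by RPKM rests on the length as well as on the reads.

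Of the next 7 most abundant genes, 4 fell in both lines. Zm00001d000227 (960 bases, mean 291 RPKM) had a lower group mean at each later stage in both lines. Its group means in the high-oil line were 682, 497, 241, 179, 117 and 91.4 RPKM over the 6 stages, and in the low-oil line 628, 494, 204, 150.1, 113 and 92.6 RPKM. From 15 to 40 days it changed by -2.89 ± 0.13 in the high-oil line (limma, adjusted p = 2.6e-16) and by -2.76 ± 0.13 in the low-oil line (limma, adjusted p = 6.9e-16). Zm00001d000204 (88.2 RPKM) changed by -2.63 ± 0.34 in high-oil embryos and -2.57 ± 0.34 in low-oil embryos (limma, adjusted p = 1.7e-07 and 2.6e-07). Zm00001d000294 (101 RPKM) changed by -2.43 ± 0.27 in high-oil embryos and -1.40 ± 0.27 in low-oil embryos (limma, adjusted p = 7.8e-09 and 5.3e-05). All 3 had their highest group mean at 15 days in each line. The low-oil call of Zm00001d000294 misses the minimum change of 1 under median-of-ratios scaling (-0.99). Zm00001d000021 (170.3 RPKM) changed by -1.28 ± 0.22 in each line (limma, adjusted p = 1.1e-05 each), and neither call holds under median-of-ratios scaling (-0.86 in each line).

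Other abundant genes had flatter courses. Zm00001d000339 (278 RPKM) rose in the low-oil line by 1.19 ± 0.25 (limma, adjusted p = 0.00023), a call lost without low-oil 40-day replicate 2 (0.96). In the high-oil line its change of 0.54 ± 0.25 did not pass (limma, adjusted p = 0.072). Zm00001d000300 (146 RPKM) differed between 40 and 15 days by 0.32 ± 0.29 in high-oil embryos and 0.01 ± 0.29 in low-oil embryos. For Zm00001d000224 (113 RPKM) the differences were -0.55 ± 0.19 in high-oil embryos and 0.31 ± 0.19 in low-oil embryos. None of these 4 differences was called. Zm00001d000224 was highest in the middle of the window, with a mean of 143 RPKM at 30 days in high-oil embryos and 168 RPKM at 20 days in low-oil embryos.

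The design sets 1 line against the other. Averaged over the 6 stages, 10 of the 308 genes were higher in high-oil embryos and 12 were lower. A gene was called at an adjusted p below 0.05 with a difference of at least 1 on the log2 scale. Over all 28048 features tested, 2.86% were called higher and 2.96% lower, against 3.25% and 3.90% of the detected genes. The median difference was -0.10 over the 308 genes and -0.07 over all features. Of the 22 called genes, 15 passed the filter through the level of 1 line alone, so nothing is read from their count. Among genes that passed within each line, 2 of 240 were higher and 5 were lower (2.92%), close to the 3.11% of all 23894 such features.

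Several genes had reads almost wholly in the high-oil line. Zm00001d000433 (354 bases) had 10.9 to 44.3 RPKM in the 18 high-oil libraries, median 27.1, against 0 to 0.146 RPKM in the 18 low-oil libraries, median 0.0216. This amounts to 9174 reads against 14, a ratio of 682 after scaling by library totals (exact 95% interval 406 to 1247, counting error only). Zm00001d001529 (261 bases) had 14.2 to 36.4 RPKM in the high-oil line, median 21.6, against 0 to 0.0767 RPKM in the low-oil line, median 0. Its reads numbered 5291 against 2, a ratio of 2752 with an interval of 761 to 22729. In neither gene did any library of one line come near the other line. The log2 differences were 4.73 ± 0.08 for Zm00001d000433 (limma, adjusted p = 1.3e-27) and 4.45 ± 0.07 for Zm00001d001529 (limma, adjusted p = 1.9e-28), and both were called at all 6 stages. Both passed the filter through the high-oil line alone, so the filter and the calls rest on the same values.

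Zm00001d000364 (1013 bases) followed with 4.02 to 12.9 RPKM in the high-oil line, median 5.96, against 0 to 0.380 RPKM in the low-oil line, median 0.0238. Its log2 difference was 2.85 ± 0.11 (limma, adjusted p = 2e-19) and its read ratio 100.5 (79.5 to 129). Zm00001d000821 had 0.982 to 5.63 RPKM in high-oil libraries, against 8 reads in a single low-oil library. Zm00001d000659 had 0.452 to 2.17 RPKM in high-oil libraries, against at most 0.156 RPKM in low-oil ones. Their log2 differences of 1.61 ± 0.11 and 1.16 ± 0.07 (limma, adjusted p = 2.2e-13 and 3.7e-14) are small because a pseudocount of 1 compresses low values, and the lines did not overlap in any of the 3 genes. Zm00001d001563 (219 bases) had 0.342 to 6.44 RPKM in high-oil libraries and no read (0) in any low-oil library. Its 396 high-oil reads make it at least 137-fold higher, against a floor of 3 reads over the 18 low-oil libraries. Like Zm00001d000364, Zm00001d000821 and Zm00001d000659, it passed the filter through the high-oil line alone.

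The lines overlapped or both had reads in the rest of the higher group. Zm00001d000978 had 4.55 to 16.3 RPKM in the high-oil line, median 9.75, and 0 to 7.02 RPKM in the low-oil line, median 0.0375. The low-oil level rested on 3 libraries, 15-day replicate 3 (4.97 RPKM), 35-day replicate 2 (2.69 RPKM) and 35-day replicate 3 (7.02 RPKM), and the other low-oil libraries were at or below 0.493 RPKM. Even so, the gene was called at all 6 stages, with 2.89 ± 0.19 on average (limma, adjusted p = 3e-13). Zm00001d000135 (1836 bases) was expressed in both lines without overlap, at 18.4 to 43.2 RPKM in high-oil embryos and 5.90 to 9.08 RPKM in low-oil embryos, a difference of 1.81 ± 0.05 (limma, adjusted p = 1.4e-22). Zm00001d000636 (2.80 ± 0.28) is described with the changes over age. Zm00001d001372 had 1.03 on the log2 scale and was below 1 in 6 of the 36 fits that leave out 1 library. Zm00001d000636 and Zm00001d001372 passed the filter through the high-oil line alone.

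Other genes had reads almost wholly in the low-oil line. Zm00001d000677 (238 bases) had 0 to 0.265 RPKM in the high-oil line, median 0, against 4.63 to 16.0 RPKM in the low-oil line, median 10.3. Its 7 high-oil reads stand against 2338 low-oil reads, a low-oil over high-oil ratio of 321 (156 to 799.5). Zm00001d000156 (1381 bases) had 0 to 0.155 RPKM in the high-oil line, against 5.81 to 13.3 RPKM in the low-oil line. Zm00001d000011 (3470 bases) had 0 to 0.0364 RPKM in the high-oil line, against 2.37 to 5.77 RPKM in the low-oil line. The lines were far apart in all 3 genes at every stage. All 3 passed the filter through the low-oil line alone, so the filter and the calls rest on the same values. The log2 differences were -3.36 ± 0.09, -3.08 ± 0.08 and -2.34 ± 0.07 in the same order (limma, adjusted p = 9.6e-23, 2.8e-24 and 2.4e-22). The low-oil over high-oil read ratio was 193 (148 to 258) for Zm00001d000156 and 491 (340 to 739.6) for Zm00001d000011.

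**Figure D2:**
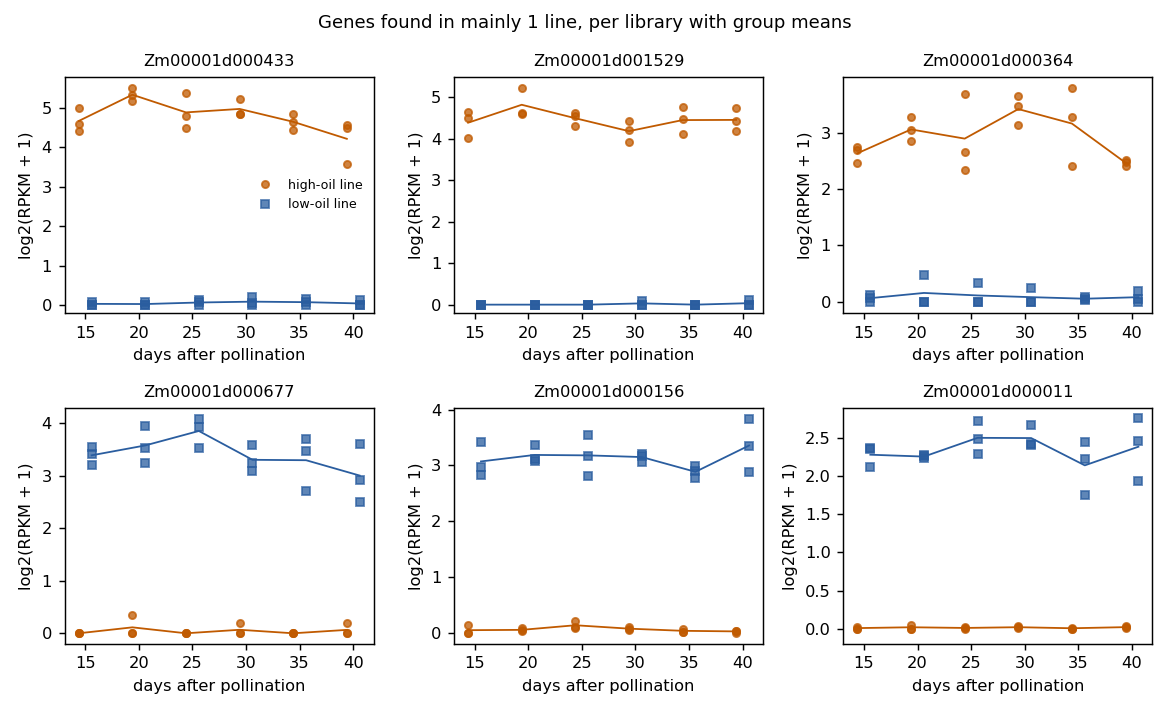
Levels of 6 genes, log2(RPKM + 1) on the vertical axis, against days after pollination. Circles are single high-oil libraries, squares are single low-oil libraries, and lines join the group means (3 libraries each). In the upper row the high-oil libraries of Zm00001d000433, Zm00001d001529 and Zm00001d000364 stand above all low-oil libraries, and in the lower row Zm00001d000677, Zm00001d000156 and Zm00001d000011 are near 0 in the high-oil line.

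Lower on the scale, Zm00001d000208 had 3 reads over all high-oil libraries against 789 in the low-oil line, a low-oil over high-oil ratio of 253 (86.2 to 1229). Its low-oil level was 0.315 to 5.31 RPKM, and its difference was -1.48 ± 0.08 (limma, adjusted p = 7.1e-15). Zm00001d001548 had 3 reads against 350, a ratio of 112 (38.1 to 546), and -1.35 ± 0.18 (limma, adjusted p = 3e-07), although 1 low-oil library also had none. Zm00001d000208, Zm00001d001548, Zm00001d000317 and Zm00001d001600 passed the filter through the low-oil line alone. The lines overlapped in Zm00001d001334 (-1.31 ± 0.23), which had 0 to 5.16 RPKM in high-oil libraries against 1.61 to 9.17 RPKM in low-oil ones. They also overlapped in Zm00001d001440 (-1.16 ± 0.23), with 0 to 2.98 RPKM in high-oil libraries against 0.146 to 9.08 RPKM in low-oil ones. In Zm00001d000317 they overlapped as well. It was called at -1.17 ± 0.24, but 2 low-oil libraries, 35-day replicate 3 (13.3 RPKM) and 40-day replicate 3 (29.0 RPKM), stood far above a low-oil median of 1.22 RPKM. Without the 40-day one its difference was -0.98, under the minimum. The last 4 called lower were Zm00001d001600 (-1.15), Zm00001d000247 (-1.12), Zm00001d000002 (-1.08) and Zm00001d000320 (-1.03). Zm00001d000320 was below the minimum under median-of-ratios scaling (-0.96), and Zm00001d000002 was just short of it.

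Stage by stage, 19 genes were called between the lines at 15 days (5.72% of all features), 27 at 20 days (6.85%), 27 at 25 days (7.36%), 25 at 30 days (6.3%), 35 at 35 days (8.27%) and 21 at 40 days (6.88%). As shares of the 308 genes these range from 6.17% to 11.4%. The 40-day count was 34 without high-oil 40-day replicate 1, 1 of the 3 libraries that stand apart, when 9.03% of all features were called. Without all 3 of those libraries the counts were 19, 27, 27, 27, 37 and 27, against 5.94%, 7.17%, 7.72%, 6.68%, 9.48% and 8.27% of all features. In all, 67 genes (21.8%) were called at 1 stage or more, against 17.2% of all features. Of these, 34 (11% of the 308) were called at a single stage, against 8.26% of all features, and 9 at all 6. Of these 9, 6 were higher in the high-oil line at every stage (1.14% of all features) and 3 were lower at every stage (1.09% of all features). The 6 are Zm00001d000433, Zm00001d001529, Zm00001d000978, Zm00001d000364, Zm00001d000135 and Zm00001d000821, and the 3 are Zm00001d000677, Zm00001d000156 and Zm00001d000011. Of these 9, only Zm00001d000978 and Zm00001d000135 passed the filter within each line. The stage counts also include genes that passed through 1 line alone, so nothing is read from them.

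A single gene was called in both directions, and it was singled out after its values were seen. Zm00001d000004 was lower in high-oil embryos at 25 days (-1.38 ± 0.31, limma, adjusted p = 0.0021) and higher at 35 days (1.02 ± 0.31, limma, adjusted p = 0.024). Averaged over stages it differed by -0.08 ± 0.13 (limma, adjusted p = 0.68).

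More of these genes were called for age than for line. Between 15 and 40 days, 36 genes rose in the high-oil line and 46 fell, against 10.3% and 21.2% of all features. Low-oil embryos had 39 rises and 55 falls, against 11% and 21.4% of all features. Both lines shared 27 rises, 8.77% of the 308 against 7.48% of all features, and 38 falls, 12.3% against 16.6% of all features. A further 17 genes were called in the high-oil line alone and 29 in the low-oil line alone, 197 in neither, and 0 in opposite directions. The median change was -0.03 in high-oil embryos and -0.06 in low-oil embryos, against -0.24 in each line over all features. The medians and counts depend on the scaling of the libraries. Under median-of-ratios scaling the median over all features was 0.02 in each line, and the counts became 46 rises and 33 falls in high-oil embryos and 46 rises and 31 falls in low-oil embryos. Over all features that scaling gave 14.1% rises and 13.9% falls in high-oil embryos, with 14.7% and 13.9% in low-oil embryos. Rises thus made up 43.9% of the high-oil calls as deposited and 58.2% after that scaling, and in the low-oil line 41.5% and 59.7%.

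**Figure D3:**
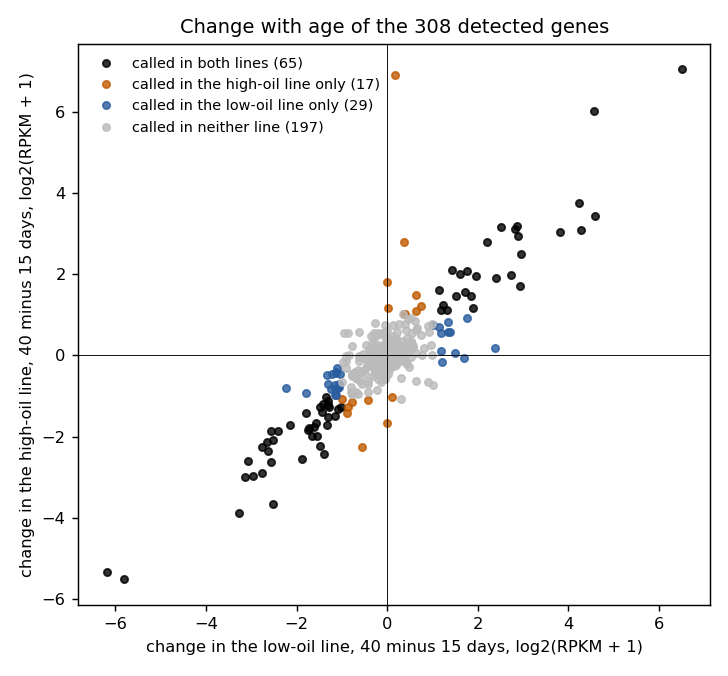
Change from 15 to 40 days of the 308 detected genes, as the difference of group means of log2(RPKM + 1), in the high-oil line (vertical axis) and in the low-oil line (horizontal axis). Each point is a gene. The 65 genes called in both lines lie in the lower left and upper right, 17 were called in the high-oil line alone, 29 in the low-oil line alone and 197 in neither.

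The day of the highest stage mean, taken over both lines, was 15 days for 32.5% of the genes, against 45.1% of all features tested. It was 20 days for 17.2% of the genes and 12.5% of all features, and 25 days for 12% of the genes and 7.61% of all features. It was 30 days for 7.14% of the genes and 4.46% of all features, and 35 days for 5.52% of the genes and 7.52% of all features. It was 40 days for 25.6% of the genes and 22.9% of all features. These shares describe genes and carry no test.

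The falls were mostly among the lower numbers. Up to number 500, 32 of 180 genes fell in both lines (17.8%) and 11 rose in both (6.11%), near the 16.6% and 7.48% of all features. Beyond it, 6 of 128 fell (4.69%) and 16 rose (12.5%). Line calls were 10 of 180 (5.56%) and 12 of 128 (9.38%), against 5.83% of all features. This division was chosen after the values were seen and carries no test. The levels differ along with these shares, and a gene below 1 RPKM cannot fall by 1 on the log2(RPKM + 1) scale even if it goes to 0. The part that level plays in the split was not tested.

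The widest rise was that of Zm00001d000840 (415 bases). At 40 days it had 211, 145 and 121 RPKM in the high-oil line, against 0.320, 0.232 and 0 RPKM at 15 days. In the low-oil line it had 148, 108 and 77.0 RPKM at 40 days, against 0.145, 0.330 and 0.110 RPKM at 15 days. The ages were far apart in both lines, with changes of 7.05 ± 0.42 in the high-oil line (limma, adjusted p = 4.5e-14) and 6.50 ± 0.42 in the low-oil line (limma, adjusted p = 2.4e-13). The lines differed at 20 days, when the high-oil libraries had 7.58, 0.913 and 3.55 RPKM, against 0.205, 0.0994 and 0 RPKM in the low-oil libraries. That difference was 1.94 ± 0.42 (limma, adjusted p = 0.0017), and the gene was called between the lines at no other stage.

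Zm00001d000128 (881 bases) had risen by 25 days, and its later means did not climb further in the high-oil line. Its high-oil stage means were 0.388, 4.19, 23.7, 13.3, 20.2 and 14.0 RPKM, and its low-oil means were 0.425, 8.65, 46.7, 35.2, 47.3 and 32.9 RPKM. It changed by 3.44 ± 0.34 in high-oil embryos and 4.58 ± 0.34 in low-oil embryos (limma, adjusted p = 1.1e-09 and 3.2e-12). From 20 days on the high-oil means were below the low-oil means, and the line difference was called at 20, 30, 35 and 40 days, with -1.17 ± 0.34 at 40 days (limma, adjusted p = 0.02). The remaining genes of this group were Zm00001d001711, Zm00001d000237 and Zm00001d001491. Their changes were 3.75 ± 0.57, 3.09 ± 0.45 and 3.04 ± 0.48 in high-oil embryos and 4.23 ± 0.57, 4.27 ± 0.45 and 3.82 ± 0.48 in low-oil embryos. Each had a group mean of at most 0.227 RPKM at 15 days and ended between 9.71 and 26.6 RPKM, with SDs of 3.45 to 26.1 RPKM among the 40-day libraries. These 40-day levels rest partly on replicate 1, which stands apart in both lines and was the highest library in all 3 genes. Without it the means were 8.54 RPKM in high-oil and 11.6 RPKM in low-oil embryos for Zm00001d001711, 7.79 and 17.5 RPKM for Zm00001d000237, and 4.48 and 9.45 RPKM for Zm00001d001491.

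**Figure D4:**
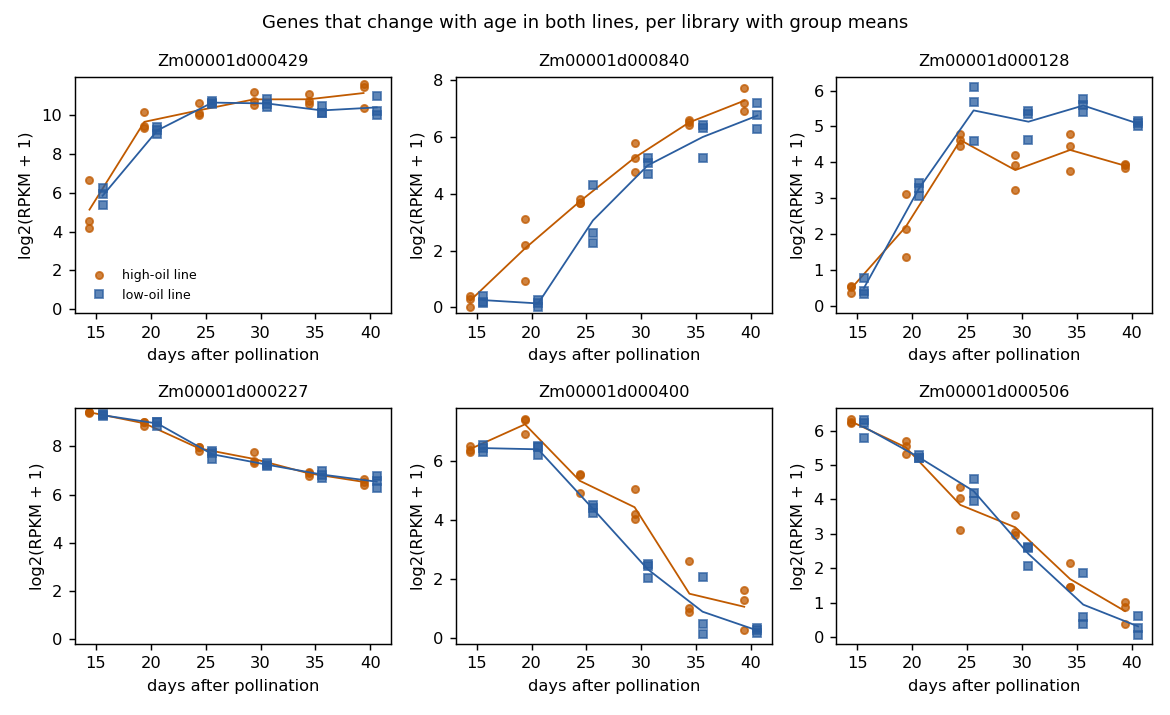
Levels of 6 genes that changed from 15 to 40 days in both lines, log2(RPKM + 1) on the vertical axis, against days after pollination. Circles are single high-oil libraries, squares are single low-oil libraries, and lines join the group means (3 libraries each). Zm00001d000429, Zm00001d000840 and Zm00001d000128 in the upper row rise, and Zm00001d000227, Zm00001d000400 and Zm00001d000506 in the lower row fall in both lines.

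Averaged over the lines, the deepest fall was that of Zm00001d000400 (1104 bases), although Zm00001d000506 fell more in the high-oil line. At 40 days it had 0.210, 1.43 and 2.05 RPKM in the high-oil line, against 90.0, 82.5 and 78.7 RPKM at 15 days. In the low-oil line it had 0.254, 0.112 and 0.208 RPKM at 40 days, against 86.2, 78.4 and 92.5 RPKM at 15 days. The changes were -5.35 ± 0.39 in high-oil embryos and -6.18 ± 0.39 in low-oil embryos (limma, adjusted p = 2.9e-12 and 1.5e-13). In the high-oil line Zm00001d000400 first stood higher at 20 days, with 119, 171 and 166 RPKM. The lines differed on the way down. The high-oil 30-day libraries had 15.4, 17.3 and 32.5 RPKM, against 3.08, 4.38 and 4.74 RPKM in the low-oil line, without overlap and with a difference of 2.10 ± 0.39 (limma, adjusted p = 0.00028). No other stage was called for this gene.

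Zm00001d000506 (601 bases) had a lower group mean at each later stage in both lines. Its high-oil stage means were 76.2, 45.0, 14.2, 8.25, 2.30 and 0.714 RPKM, and its low-oil means were 68.8, 36.4, 18.2, 4.41, 1.14 and 0.252 RPKM. It changed by -5.52 ± 0.31 in high-oil embryos and -5.80 ± 0.31 in low-oil embryos (limma, adjusted p = 9.7e-15 and 4.2e-15). Zm00001d000168 (2065 bases) lost most of its level early, with high-oil means of 142, 39.7 and 12.4 RPKM and low-oil means of 101, 48.3 and 16.2 RPKM over the first 3 stages, and 8.67 RPKM in high-oil and 9.37 RPKM in low-oil embryos at 40 days. Its changes were -3.87 ± 0.22 in high-oil embryos and -3.27 ± 0.22 in low-oil embryos (limma, adjusted p = 1.5e-14 and 4.4e-13). Zm00001d000203, Zm00001d000399 and Zm00001d000112 fell by 3.66, 3.00 and 2.97 on the log2 scale in high-oil embryos and by 2.52, 3.14 and 2.97 in low-oil embryos.

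In 6 of the 308 genes the change from 15 to 40 days differed between the lines by the interaction test, against 2.74% of all features. The count was 10 without high-oil 40-day replicate 1, against 3.79% of all features, and 8 without the 3 libraries that stand apart, against 3.57%. A positive interaction means a more positive change in the high-oil line. Zm00001d000636 (645 bases) appeared in the high-oil line with age. Its high-oil libraries had 1.21, 0.724 and 1.06 RPKM at 25 days, 25.2, 57.5 and 0.125 RPKM at 30 days, 73.1, 25.3 and 60.7 RPKM at 35 days, and 88.8, 132 and 153 RPKM at 40 days. No earlier high-oil library passed 0.226 RPKM, and no low-oil library passed 0.254 RPKM at any stage. At 30 days, replicate 3 stood apart from the other 2 high-oil libraries. The change was 6.91 ± 0.69 in high-oil embryos and 0.17 ± 0.69 in low-oil embryos, and the interaction was 6.73 ± 0.98 (limma, adjusted p = 4.8e-05). The interaction lost its call with limma-voom on the reads (9.68, adjusted p = 0.53), and over all its alternatives the adjusted p ran from 3.7e-07 to 0.53.

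Zm00001d000596 (501 bases) had a like course at a low level. Its high-oil means were 0.0323, 0.0701, 0.883, 1.40, 2.04 and 2.91 RPKM over the 6 stages, and all 18 low-oil libraries were at 0. The 630 high-oil reads make it at least 218-fold higher against the floor of 3 reads over the low-oil libraries. Its interaction was 1.82 ± 0.33 (limma, adjusted p = 0.00084), which only restates the high-oil rise, since the low-oil libraries are at 0. Zm00001d000596 passed the filter through the high-oil line alone, as did Zm00001d000636 and Zm00001d001563. Nothing is therefore read from the count of interactions. Zm00001d000717 (636 bases) crossed over with age. At 40 days it had 4.89, 8.01 and 6.81 RPKM in the high-oil line, against 0.693, 2.04 and 1.08 RPKM in the low-oil line. At 15 days it had 0.139, 0.0606 and 0 RPKM in the high-oil line, against 1.23, 0.467 and 0.501 RPKM in the low-oil line. The lines were apart at both ends, in opposite order, though the 15-day difference of -0.67 ± 0.26 was not called (limma, adjusted p = 0.14). The 40-day difference was 1.76 ± 0.26 (limma, adjusted p = 1.1e-05) and the interaction 2.43 ± 0.37 (limma, adjusted p = 9e-05).

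In the other 3 genes the high-oil line fell and the low-oil change was not called. Zm00001d000320 (1364 bases) had like levels at 15 days, 15.9 ± 2.76 RPKM in high-oil embryos and 15.5 ± 2.55 RPKM in low-oil embryos (SD, n = 3 each). At 40 days it had 2.30, 2.55 and 2.66 RPKM in the high-oil line, against 11.3, 13.1 and 6.83 RPKM in the low-oil line, without overlap. The 40-minus-15-day difference was -2.26 ± 0.20 in high-oil embryos and -0.56 ± 0.20 in low-oil embryos, with an interaction of -1.70 ± 0.29 (limma, adjusted p = 0.00031). Zm00001d000135 had 18.8 ± 0.415 RPKM at 40 days and 39.5 ± 3.66 RPKM at 15 days in the high-oil line. In the low-oil line it had 8.28 ± 0.846 RPKM at 40 days and 7.72 ± 1.29 RPKM at 15 days (SD, n = 3 each). Its interaction was -1.13 ± 0.18 (limma, adjusted p = 0.00015) and fell short of 1 in size under quantile normalization (-0.97). Zm00001d001563 fell by 1.67 ± 0.25 in the high-oil line, where it was at 0.568 ± 0.349 RPKM at 40 days and 4.02 ± 1.28 RPKM at 15 days (SD, n = 3 each). With every low-oil library at 0 its interaction of -1.67 ± 0.36 (limma, adjusted p = 0.005) restates that fall. It lost its call with limma-voom on the reads (-2.50, adjusted p = 0.43), and over all its alternatives the adjusted p ran from 0.0028 to 0.43.

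**Figure D5:**
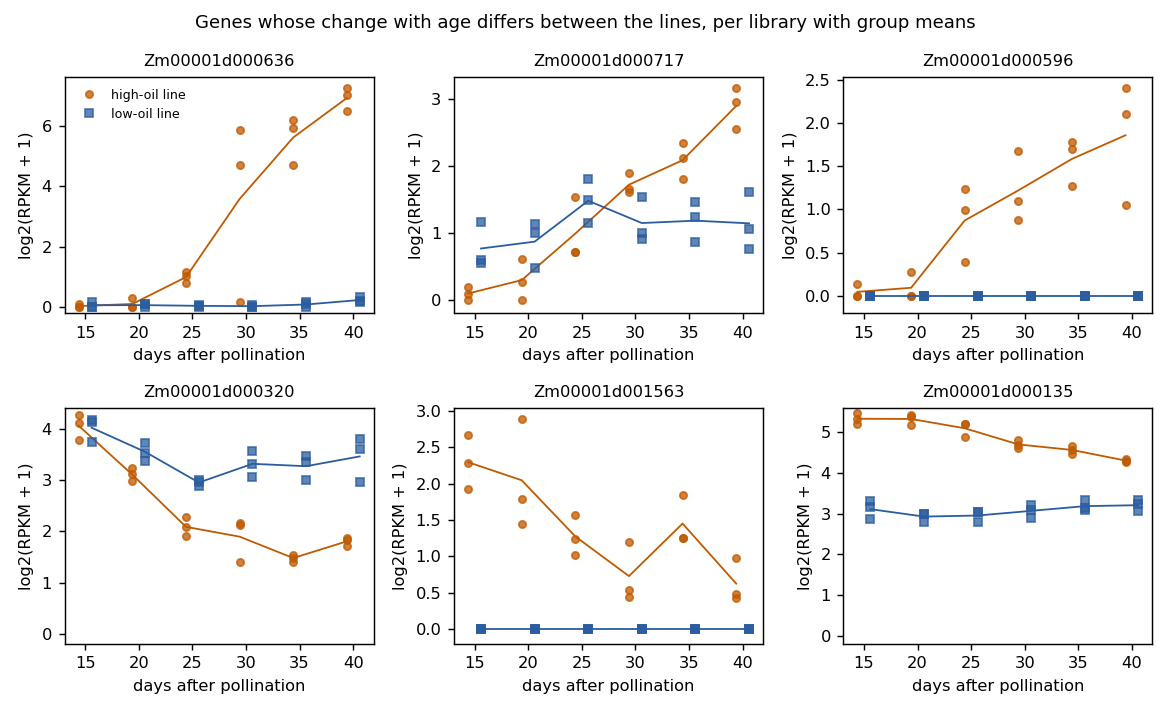
Levels of the 6 genes whose change from 15 to 40 days differed between the lines, log2(RPKM + 1) on the vertical axis, against days after pollination. Circles are single high-oil libraries, squares are single low-oil libraries, and lines join the group means (3 libraries each). Zm00001d000636, Zm00001d000717 and Zm00001d000596 climb in high-oil embryos, and Zm00001d000320, Zm00001d001563 and Zm00001d000135 fall there.

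Some genes hardly moved. For genes averaging at least 10 RPKM, the lowest coefficients of variation over the 36 libraries were 14.3% for Zm00001d000124, 14.8% for Zm00001d000257, 15.3% for Zm00001d000228, 16.2% for Zm00001d000116 and 16.3% for Zm00001d000169. Zm00001d000124 had 8.60 to 14.4 RPKM in high-oil embryos and 9.86 to 14.6 RPKM in low-oil embryos. Zm00001d000257 had 21.1 to 39.2 RPKM in high-oil embryos and 29.0 to 45.7 RPKM in low-oil embryos. Over all stages together the ranges of the lines overlapped in both genes, but at some single stages they did not. At 40 days Zm00001d000124 had 8.60, 10.5 and 10.7 RPKM in the high-oil line, against 13.0, 13.7 and 13.8 RPKM in the low-oil line. At 25 days Zm00001d000257 had 28.5, 29.8 and 32.7 RPKM in the high-oil line, against 45.7, 44.9 and 40.1 RPKM in the low-oil line. A low coefficient over all libraries can still hold a change with age. Zm00001d000169 had 19.1, 19.3 and 20.0 RPKM at 40 days in the high-oil line, against 15.1, 16.2 and 15.1 RPKM at 15 days. In the low-oil line it had 20.0, 20.4 and 19.0 RPKM at 40 days, against 12.8, 15.2 and 13.7 RPKM at 15 days. Zm00001d000228 had 37.6, 35.4 and 37.0 RPKM at 25 days in the low-oil line, against 23.5, 18.9 and 23.3 RPKM at 15 days. All 5 genes have numbers up to 500 and lengths of at least 2139 bases.

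Neighbouring numbers seldom followed each other. The median Pearson correlation of log2(RPKM + 1) over the 36 libraries was 0.09 for 103 pairs of detected genes with adjacent numbers and 0.11 for 747 pairs that were 2 to 10 numbers apart. It was 0.05 for 3131 pairs at 11 to 50 numbers and 0.02 for 43297 pairs further apart. All pairs share the same libraries and their changes with age, and adjacent numbers need not lie on 1 contig.

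A few neighbours did run alike. Zm00001d000226 and Zm00001d000227 had the highest correlation over the 36 libraries (0.93), with 0.94 in each line taken alone (18 libraries each). Zm00001d000226 was far lower, with high-oil means of 9.89, 9.52, 3.97, 3.79, 2.70 and 1.50 RPKM, which decline stage by stage as those of Zm00001d000227 do. Zm00001d000143 and Zm00001d000153 had 0.91 in high-oil embryos and 0.93 in low-oil embryos, and Zm00001d000197 and Zm00001d000204 had 0.85 and 0.96. All 6 of these genes had lower means at 40 days than at 15 days in both lines. Zm00001d000399 and Zm00001d000400, both among the deepest falls, had 0.84 and 0.93. Zm00001d000522 and Zm00001d000526 had 0.91 in high-oil embryos and 0.75 in low-oil embryos. Their 40-day means in the high-oil line were 67.8 and 21.7 RPKM, against 49.5 and 11.5 RPKM at 15 days.

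For the genes with the widest line differences, the correlation over 36 libraries includes the difference between the lines. Zm00001d000433 was most alike to Zm00001d001529 over 36 libraries (r = 0.99), but within the lines their correlation was 0.21 in high-oil embryos and 0.22 in low-oil embryos (18 libraries each). Zm00001d000156 and Zm00001d000011 had 0.99 over 36 libraries, and 0.15 in high-oil embryos and 0.56 in low-oil embryos. Other pairs had higher correlations within the high-oil line, some of them on few reads. Zm00001d000677 and Zm00001d000011 had 0.87 in high-oil embryos, where both are near 0, and 0.49 in low-oil embryos. Zm00001d000208 and Zm00001d000677 had 0.76 in high-oil embryos and 0.56 in low-oil embryos. In the high-oil line Zm00001d000208 was above 0 only in 20-day replicate 3 (0.0551 RPKM) and 30-day replicate 2 (0.0929 RPKM). Zm00001d000677 was above 0 only in those and in 40-day replicate 2. The high-oil correlations of these genes thus rest on a few reads, and nothing is read from them. Within the high-oil line Zm00001d001563 and Zm00001d000135 had 0.74, and Zm00001d000364 and Zm00001d000433 had 0.60 there and 0.11 in low-oil embryos. The numbers of Zm00001d000433 and Zm00001d001529 are 1096 apart, and those of Zm00001d000156 and Zm00001d000011 are 145 apart. Of the 10 runs of at least 4 detected genes with consecutive numbers, the run Zm00001d000202 to Zm00001d000205 had the highest median correlation among its members (0.58), and 2 of its 4 genes fell in both lines.

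Over the 10 comparisons made (the line averaged over stages, the line at each of 6 stages, age in each line and the interaction), 147 of the 308 genes (47.7%) were called in at least 1, against 48% of all features, and 161 in none.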

How the data were processed

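The authors deposited 1 table of RPKM values with a column per library (0 of its columns were left unused). Per the submitters' processing notes, the build was B73 RefGen_v4 and the tools included TopHat2, Cufflinks and FastQC, with no version given. How reads of repeated genes were counted, and whether strand was used, is not given in the sources used here. Values of both lines rest on this 1 build.

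RPKM values are not counts, so the test was limma 3.58.1 (R 4.3.3) on log2(RPKM + 1), with a mean per group over all 36 libraries, a moderated variance with a trend, and Benjamini-Hochberg adjustment over the 28048 features that reached 1 RPKM in 3 or more libraries. Calls needed an adjusted p below 0.05 and a difference of at least 1. Fold changes on this scale understate those of low genes. The scripts were tested on simulated data.

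Read numbers and gene lengths were recovered from the RPKM values. All 51853 features above 0 (100%) gave whole reads in every library within 0.0001 reads, and the recovered reads summed to the library totals within 1217 reads. Intervals of read ratios are exact binomial at 95%, and the floor is 3 reads over a line's libraries. Both cover counting error only, since reads copied by PCR are not independent molecules. Limma-voom on these reads was an alternative.

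Genes were named by rule: the 8 most abundant, the 8 widest line differences each way among those with 1 sign at all 6 stages, the 6 widest changes with age each way called in both lines, the 4 widest interactions, the 5 steadiest, the 3 on each side of the filter, and the 5 most alike neighbour pairs. The other called line differences and interactions are named to complete those counts. Members and lists were chosen with earlier results of these data known. Whether replicate numbers pair samples was checked by the correlation of deviations from group means. Pairs with the same number had a median of -0.00. Between the lines of a stage, the 18 such pairs ran from -0.296 to 0.394, and 5 were above 0.1. No block was used in the main fit, and a fit with the block was an alternative.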

Additional observations from a re-analysis of the deposited data

Results flagged for a closer look

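In 6 of the lowest-numbered genes the change from 15 to 40 days differed between the lines by the interaction test (limma on log2(RPKM + 1), high-oil change minus low-oil change). They are 1.95% of the 308 detected genes, against 2.74% of all features. Zm00001d000636, Zm00001d000596 and Zm00001d001563 passed the filter through the high-oil line alone, so nothing is read from this count. Zm00001d000636 had an interaction of 6.73 ± 0.98 (limma, adjusted p = 4.8e-05), with a wide climb in the high-oil line and no low-oil library above 0.254 RPKM. Zm00001d000717 had 2.43 ± 0.37 (limma, adjusted p = 9e-05), with the high-oil line higher at 40 days and lower at 15 days. Zm00001d000596 had 1.82 ± 0.33 (limma, adjusted p = 0.00084) and no read (0) in the low-oil line, so that its interaction restates the high-oil rise, and the same holds for the fall of Zm00001d001563. Zm00001d000320 had -1.70 ± 0.29 (limma, adjusted p = 0.00031), Zm00001d001563 had -1.67 ± 0.36 (limma, adjusted p = 0.005) and Zm00001d000135 had -1.13 ± 0.18 (limma, adjusted p = 0.00015). These 3 genes fell in the high-oil line, and their low-oil change was not called. With limma-voom on the reads, the interactions of Zm00001d000636 (adjusted p = 0.53) and Zm00001d001563 (adjusted p = 0.43) lost their calls. A test for single samples far from their group was not made, since the groups hold 3 libraries.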

How the results depend on the processing

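Of 61 values of named genes, 50 kept their direction and call under every alternative that gave them a value, and 0 reversed under any. Genes removed by the minimum of 5 RPKM had no value in that setting. A pseudocount of 0.1 gave 19 genes higher and 36 lower in high-oil embryos on average, against 5.93% and 6.37% of all features, and 43 called at 25 days, against 10.1%. A minimum of 5 RPKM left 183 of the 308 genes, with 6 higher, 7 lower, 14 at 25 days, 22 at 35 days, 13 at 40 days and 3 interactions, against 2.93%, 3.21%, 7.29%, 8.36%, 6.36% and 2.61% of all features. The adjusted p alone, with no minimum change, gave 33 higher, 67 lower, 55 at 25 days, 54 at 35 days, 35 at 40 days, 80 high-oil falls and 84 low-oil falls, against 10.7%, 21.2%, 16.2%, 14.6%, 10.6%, 37.4% and 37.2% of all features. Limma-voom on recovered reads gave 20 higher and 37 lower, against 6.26% and 6.93%. A fit of the compared groups alone gave 21 at 35 days, against 5.95%. Low-oil falls numbered 31 under median-of-ratios scaling and 33 under quantile normalization, against 13.9% and 14.4%. For the pseudocount, the minimum and the adjusted p alone, the change in count follows from the choice itself, and for the other settings the cause was not tested.

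With the replicate block the counts were 10 higher, 12 lower, 19, 28, 26, 25, 35 and 22 at the 6 stages, 36 rises and 46 falls in the high-oil line, 39 rises and 55 falls in the low-oil line and 6 interactions. Leaving out 1 library at a time gave 9 to 11 higher and 11 to 13 lower, 16 to 22, 23 to 25, 22 to 31, 19 to 26, 27 to 35 and 20 to 34 at the 6 stages, 33 to 37 rises and 46 to 50 falls in the high-oil line, 38 to 41 rises and 48 to 57 falls in the low-oil line, and 6 to 10 interactions. The counts of 34 and 10 came without high-oil 40-day replicate 1, when 9.03% and 3.79% of all features were called. A fit without the 3 libraries that stand apart, chosen after seeing the data, gave 11 higher, 14 lower, 36 rises and 49 falls in the high-oil line, and 39 rises and 48 falls in the low-oil line. Over all features that fit gave 2.95% higher and 3.01% lower. It gave 10.6% rises and 19.3% falls in the high-oil line, and 10.5% and 18.6% in the low-oil line.

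Depth limits the low genes most: 77 of the 308 averaged below 1 RPKM, where a short gene has few reads per library.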
